A study of Rattus norvegicus with 30 samples.

Results

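Tissue that had grown inside a nerve guide 7 days after an immediate repair was compared with healthy nerve, gene by gene. The comparison holds 9 of the 30 samples of the series: 4 samples of immediate repair at day 7 and 5 of control nerve, chosen by their labels alone and not by any measured value. All samples came from the median nerve, a nerve of the forelimb, of wild-type female rats described as adult. The control nerve was healthy and untreated, and is labelled day 0. In the immediate repair the nerve was cut to leave a gap of 8 mm, and a 10 mm tube of chitosan was placed over it at once, with no wait. What was collected at day 7 was the tissue formed within that tube, so the 2 groups differ in injury, in the tube and in being new or mature tissue, and these cannot be told apart. In the same way, fewer cells of a type and less RNA per cell cannot be told apart in bulk tissue. Day 14 (4 samples) and day 21 (5 samples) of the same repair, and day 7 of a repair delayed by 3 months (5 samples), were used only to place the day 7 samples.

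A healthy peripheral nerve consists of axons wrapped by Schwann cells, which make the myelin sheath and hold most of its glial RNA, together with fibroblasts, blood vessels, resident macrophages and the perineurial sheath. After a cut the distal axons degenerate, Schwann cells stop making myelin and take on a repair state, and immune cells enter. A hollow tube fills first with a clot and then with a bridge of fibroblasts, macrophages and new vessels, along which Schwann cells and then axons advance. This is background and was not measured here. The deposited table gives Ensembl gene IDs without symbols, and 0 of its IDs matched the gene table used here. Marker genes of these cell types were therefore not looked up, the labelled tissue was not checked against its markers, and genes are described by their behaviour. Total counts of the 9 libraries lay between 11958242 and 16431590. Nothing in the labels ties a replicate to a separate animal, and p-values then measure only the spread between these samples, which may be technical. The labels give no batch.

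The first comparison was of size and direction across all genes. At day 7 most of the tested genes stood away from control nerve, and the falls were somewhat more numerous than the rises, and deeper. Of 16015 genes tested, 4829 rose (30.2%) and 5609 fell (35%) by edgeR's quasi-likelihood test at a Benjamini-Hochberg adjusted p under 0.05, together 65.2%. The median log2 fold change was 1.53 among the rises and -1.96 among the falls, against -0.08 over all tested genes. The imbalance grew with size. Rises of at least 4-fold numbered 1967 (12.3% of tested genes) and falls 2764 (17.3%). At 16-fold or more there were 857 rises and 1445 falls. At 64-fold or more there were 264 rises and 780 falls. Where the whole 95% interval was required to lie beyond 16-fold, 353 rises and 747 falls remained. Among the calls, 310 falls had 0 reads in every day 7 library and 123 rises had 0 reads in every control library. Their sizes and intervals are fitted values against 0 reads. Leaving out any library of the 9 moved neither count of calls by more than 1.5 times, a limit wider than the excess of falls in number. That excess was smaller under some settings and larger under others. With only the 2 compared groups fitted (14473 genes tested) there were 4632 rises and 4900 falls. With no filter on low counts (24297 genes tested) there were 5224 and 5554. With limma voom there were 4955 rises and 5923 falls, and without day 7 replicate 1 there were 4641 and 5713.

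**Figure D1:**
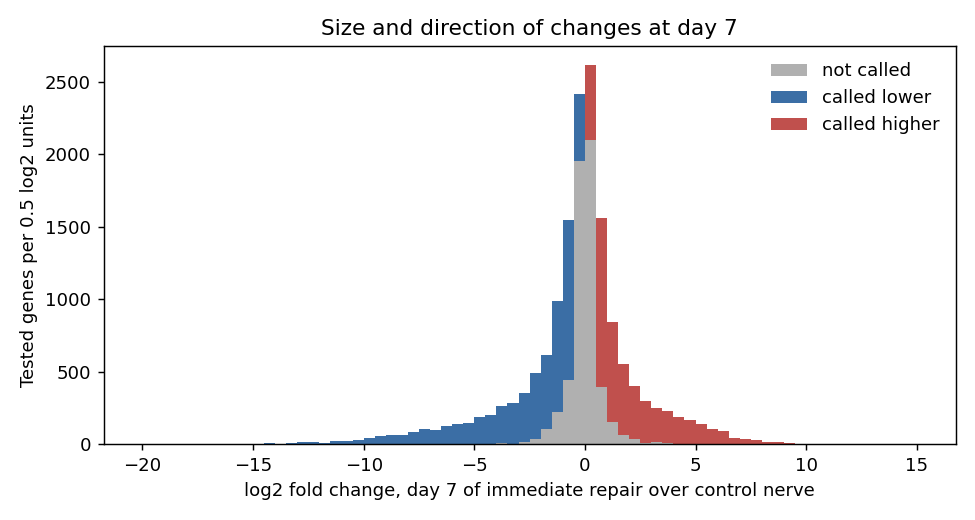
Histogram of log2 fold changes (day 7 of immediate repair over control nerve, bins of 0.5 log2 units) for the 16015 tested genes, colored by whether the gene was called higher, called lower or not called. The tail of falls on the left reaches further than the tail of rises on the right, with 780 falls and 264 rises of at least 64-fold. Sizes of genes with 0 reads in every library of a group are fitted values.

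Changes were then described by abundance. Tested genes were ranked by mean log2 CPM (counts scaled to a fixed library size, with TMM factors) over the 9 libraries and cut into 4 bins of 4003 or 4004 genes. In the least abundant bin 25% of genes rose and 33.6% fell, and in the most abundant 37.7% rose and 30.8% fell. Rises outnumbered falls in the most abundant bin only, and falls outnumbered rises in the other 3. The mean covers both groups, so a change itself moves a gene in this ranking. Set against its control level, a fall lowers a gene's place and a rise lifts it. Set against the group where the gene is higher, a change in either direction lowers its place. Changes of at least 4-fold made up 20.6% (rises) and 28.8% (falls) of the least abundant bin, but 6.87% and 7.04% of the most abundant. The 95% interval reached a median of 1.61 log2 units to either side of the estimate in the least abundant bin and 0.33 in the most abundant, so small changes in the least abundant bin were often not detectable at this depth.

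A gene that missed the threshold was not always shown to be steady. Of the 5577 genes not called, 3216 had a 95% interval that lay wholly within a 2-fold change in either direction. The other 2361 had wider intervals, and a change of 2-fold or more in them is not excluded. Among the calls, 1687 rises and 1571 falls were smaller than 2-fold.

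The 2 groups were also compared library by library, without a model. Every day 7 library was above every control library in 24.3% of tested genes and below every control library in 31.7%, together 56%. Such a full separation was seen for 78.7% of the genes called higher and 88.2% of those called lower.

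How far a day 7 library bore out calls made without it was then measured. Each of the 4 was left out in turn, genes were called from the other libraries, and its value was set against the range of the 5 controls. Those controls also took part in the calls. Of the genes called higher, 91.1%, 92.1%, 93.4% and 85.2% lay above every control library in replicates 1, 2, 3 and 4, against 34.9% to 38.0% of all tested genes. Of the genes called lower, 88.7%, 95.3%, 94.99% and 93.8% lay below every control library, against 40.3% to 47.1% of all tested genes. All 4 libraries carried the change in both directions. The depth of the falls differed between them more than the height of the rises. In genes called at least 4-fold lower without it, replicate 1 stood at a median of -2.80 log2 units from the control mean, replicate 2 at -3.65, replicate 3 at -3.83 and replicate 4 at -4.35. In genes called at least 4-fold higher, the medians were 2.89, 2.90, 3.04 and 3.18 in the same order. Each median is over its own set of genes, of 3057, 2684, 2655 and 2648 for the falls, so these are not depths of the same genes. Over the common set of all falls called with every library, of any size, the medians were -1.47, -1.87, -1.96 and -2.20. Over all such rises they were 1.27, 1.35, 1.40 and 1.37. In the common sets each library took part in the calls.

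The next question was how much of the RNA the changed genes make up. Healthy nerve spent most of its reads on genes that were lower at day 7, and day 7 tissue on genes that were higher. The called genes were chosen from these same libraries, so their shares are a description. Genes called lower took 54.5% ± 0.54 (SD, n = 5) of the reads of tested genes in control nerve and 13.4% ± 1.37 (n = 4) at day 7. Genes called higher took 18.6% ± 0.35 (n = 5) in control nerve and 60.0% ± 5.07 (n = 4) at day 7. The day 7 libraries differed here: the share of the genes called higher was 53.6%, 59.0%, 61.6% and 65.7% in replicates 1, 2, 3 and 4, while the 5 control libraries lay between 18.1% and 18.9%. Falls of at least 4-fold alone held 30.6% to 34.1% of the reads of the 5 control libraries and 1.62% ± 0.55 (n = 4) of day 7 reads.

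**Figure D2:**
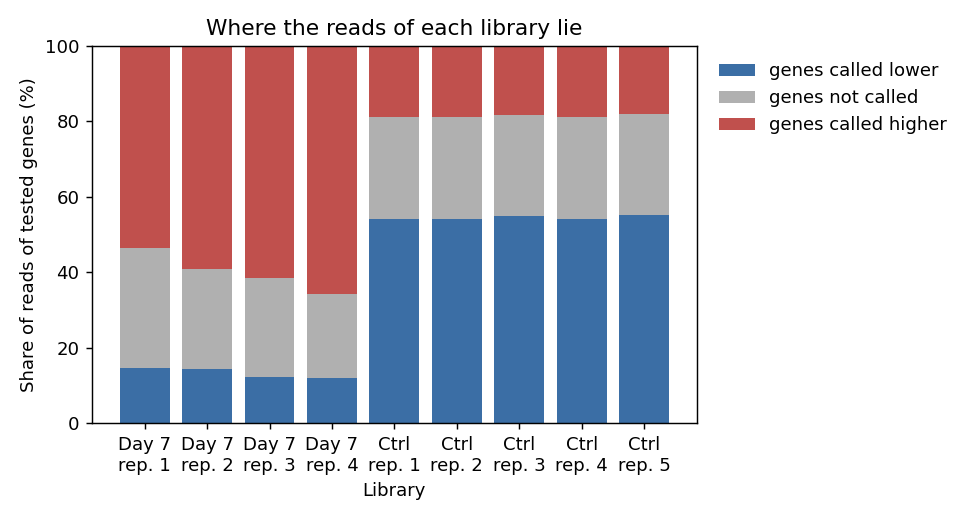
Share of the reads of tested genes (%, TMM-scaled CPM) in each of the 4 day 7 and 5 control libraries (Ctrl), divided among genes called lower, not called and called higher at day 7. Genes called higher fill 53.6% to 65.7% of day 7 reads and 18.1% to 18.9% of control reads.

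The most abundant transcripts were exchanged in part. Of the 50 genes with the highest mean CPM in control nerve, 34 fell, 5 rose and 11 were not called, with a median log2 fold change of -2.75, and 19 fell at least 16-fold. These 50 genes took 23.9% ± 1.45 (n = 5) of control reads and 11.5% ± 1.84 (n = 4) of day 7 reads. Of the 50 most abundant genes at day 7, 36 rose, 5 fell and 9 were not called, and 9 rose at least 16-fold. They took 22.4% ± 0.59 (n = 4) of day 7 reads and 11.4% ± 0.30 (n = 5) of control reads. The lists shared 19 genes. Being picked for a high level in a group tilts each list toward genes higher in that group. The number of genes that made up the top 50% of reads was 512 to 559 at day 7 and 532 to 652 in control nerve, so day 7 tissue did not spread its reads over more genes.

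The genes that moved furthest were described next. By the rule for single genes, the largest changes were taken among called genes whose log2 CPM averaged 3 or more across the 9 libraries and whose groups did not overlap. Without symbols only the 2 largest rises and the 2 largest falls are given, of 2656 rises and 2810 falls that met the rule. They were picked for extreme values in the day 7 libraries, which also enter the tests against other repair groups. The choice favours the direction of those differences, and their p-values are descriptions.

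ENSRNOG00000003171 had the largest fall. It measured 30326, 33376, 44512, 33565 and 64161 CPM in the 5 control libraries, which was 3.82% of all counts of that group. At day 7 it measured 0.257, 0, 0.210 and 0.270 CPM, from 10 reads in the 4 libraries together. A transcript abundant in every control library was thus near or at 0 in every day 7 library. The log2 fold change was -17.70 (SE 2.08, 95% interval -21.98 to -13.42, edgeR adjusted p = 6.93e-08). At day 14 of immediate repair it measured 4.20 to 335 CPM and at day 21 15.2 to 10121 CPM, below every control library in both groups. The 15.2 CPM was day 21 replicate 4 alone, and the other day 21 libraries lay at 4518 to 10121 CPM. The day 7 level was lower than at day 14 (log2 difference -9.73, SE 1.69, edgeR adjusted p = 0.000187) and day 21 (-14.95, SE 1.95, edgeR adjusted p = 4.97e-06). At day 7 of delayed repair it measured 0.375 to 6.62 CPM, and the difference from immediate repair (-3.87, SE 1.48) did not pass the test (edgeR adjusted p = 0.330).

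ENSRNOG00000022707 had the next largest fall by fitted log2 fold change (-16.56). Against 0 reads that size, and with it the place in the ranking, comes from the fit. It measured 669, 553, 1098, 586 and 1227 CPM in control nerve and had 0 reads in all 4 day 7 libraries. Set against 3 reads over the day 7 group, which a count of 0 allows as a limit of counting error, it was at least 14448-fold lower at day 7 (edgeR adjusted p = 1.96e-07). It was near 0 at day 7 of delayed repair as well, at 0.0626 to 0.318 CPM from 14 reads in all. The day 7 repairs did not differ by the test (edgeR adjusted p = 0.856). It measured 1.90 to 28.6 CPM at day 14 and 0.914 to 275 CPM at day 21 of immediate repair. Both were higher than day 7 (edgeR adjusted p = 0.000345 and 1.30e-05). The 0.914 CPM was day 21 replicate 4 alone, and the other day 21 libraries lay at 84.4 to 275 CPM.

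ENSRNOG00000013304 had the largest rise. It measured 1.39, 2.12, 2.23, 1.80 and 1.05 CPM in control nerve and 311, 327, 1648 and 3086 CPM at day 7. The groups lay far apart, and the day 7 libraries were spread among themselves, with replicates 3 and 4 high and replicates 1 and 2 low. The log2 fold change was 9.60 (SE 1.16, edgeR adjusted p = 1.07e-07). It was lower at day 14, at 22.5 to 41.0 CPM (log2 difference of day 7 over day 14 5.40, SE 1.06, edgeR adjusted p = 0.000524). At day 21 it measured 9.52 to 215 CPM (4.20, SE 0.91, edgeR adjusted p = 0.000706). The 215 CPM was day 21 replicate 4, and the other day 21 libraries lay at 9.52 to 99.5 CPM. At day 7 of delayed repair it measured 164 to 3056 CPM, much the same span as after immediate repair (0.38, SE 0.83, edgeR adjusted p = 1).

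ENSRNOG00000026235 had the next largest rise and was even across libraries. It measured 0.972, 1.19, 1.04, 0.692 and 0.405 CPM in control nerve and 242, 328, 439 and 443 CPM at day 7. Its log2 fold change was 8.70 (SE 0.53, edgeR adjusted p = 2.09e-12). It was lower later, at 55.5 to 149 CPM at day 14 and 41.7 to 175 CPM at day 21. Day 7 was higher than day 14 by 1.83 log2 units (SE 0.42, edgeR adjusted p = 0.00188) and than day 21 by 1.86 (SE 0.39, edgeR adjusted p = 0.000504). At day 7 of delayed repair it measured 191 to 490 CPM, a log2 difference of 0.11 (SE 0.39, edgeR adjusted p = 1).

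**Figure D3:**
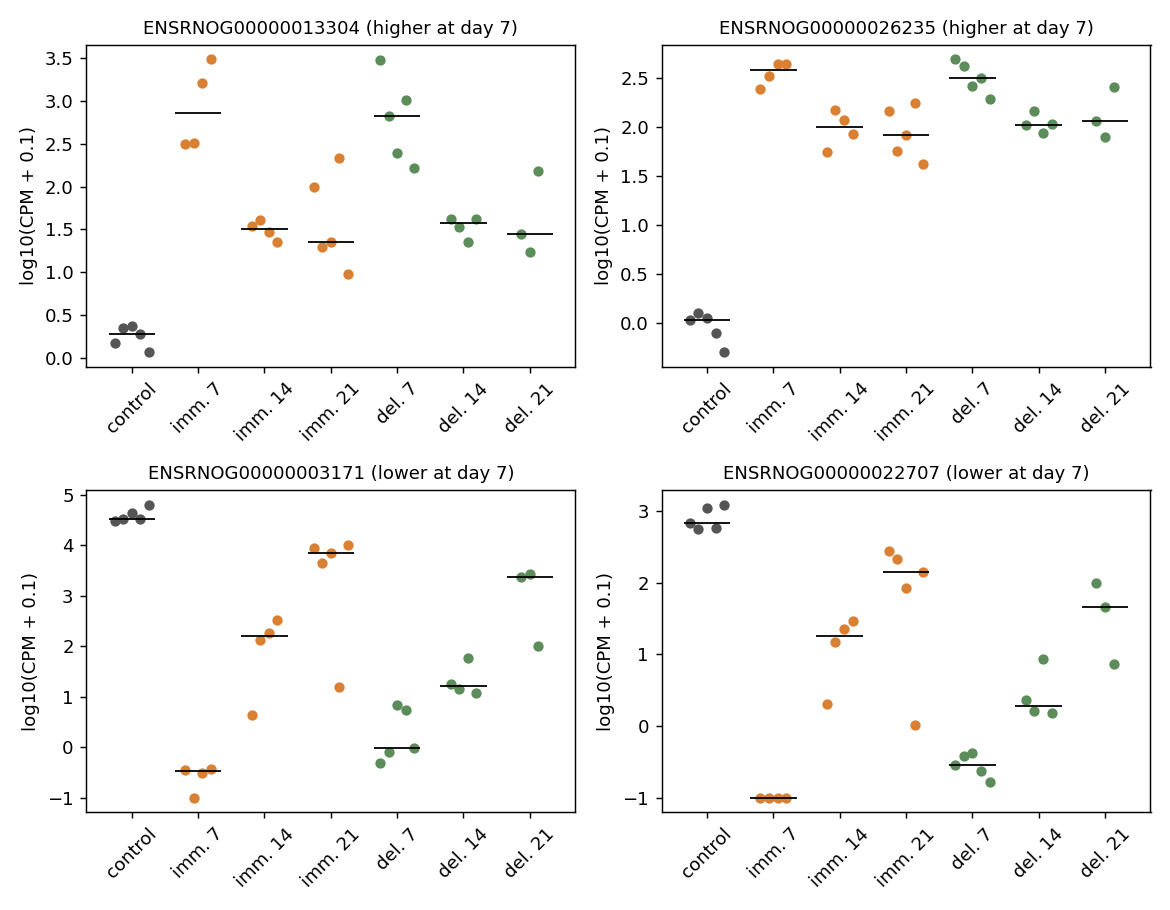
Level of the 4 genes, as log10(CPM + 0.1), in every library of the 7 groups (control; immediate and delayed repair at days 7, 14 and 21), with a line at each group's median. Both genes that fell sit at the bottom of their scale in all 4 libraries of immediate repair at day 7, and both genes that rose are higher in each of those libraries than in any control library. The rule that chose the genes required these groups not to overlap.

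Genes that went from present to near absent were counted next, with limits chosen after the data had been seen. A gene was taken as present in a group at 10 CPM or more in each of its libraries and as near absent at 0.5 CPM or less in each. By this measure 230 genes of control nerve were near absent at day 7, and 20 genes present at day 7 were near absent in control nerve. The imbalance depended on the measure. With 0 reads in every library of a group as the measure, 310 genes were at 0 at day 7 and called lower, and 123 were at 0 in control nerve and called higher. The 230 genes, among which are both falls described above, took 5.21% to 7.87% of the reads of the control libraries. A large part of this was a single gene: ENSRNOG00000003171 alone held 2.96% to 5.77% of all counts in those libraries. The set took at most 0.00224% of a day 7 library, a low share that the choice of the genes fixes. Of the 230, 64 had 0 reads in all 4 day 7 libraries. None of the 20 genes had 0 reads in all 5 control libraries. Without replicate 4, which stands apart at day 7, the first count was 240 and the second 23, though fewer libraries can only keep or raise these counts.

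These sets were then read in libraries that had no part in choosing them. Of the 230 genes, 115 to 139 reached 1 CPM in the day 14 libraries of immediate repair, and 173 to 200 in 4 of the 5 day 21 libraries. The fifth, day 21 replicate 4, had 76. The median level of the 230 genes was 35.3 to 39.6 CPM in control nerve, 0.973 to 1.90 CPM at day 14 and 0.366 to 9.08 CPM at day 21. At day 14 many of these genes were thus detected again, at a median level below that of control nerve. At day 7 of delayed repair 2, 1, 20, 38 and 100 of the 230 reached 1 CPM in replicates 1 to 5. The 20 gained genes stayed detectable: 19 or 20 of them reached 1 CPM in every day 14 library and 16 to 20 in every day 21 library of immediate repair. At day 7 of delayed repair all 20 did so in all 5 libraries.

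**Figure D4:**
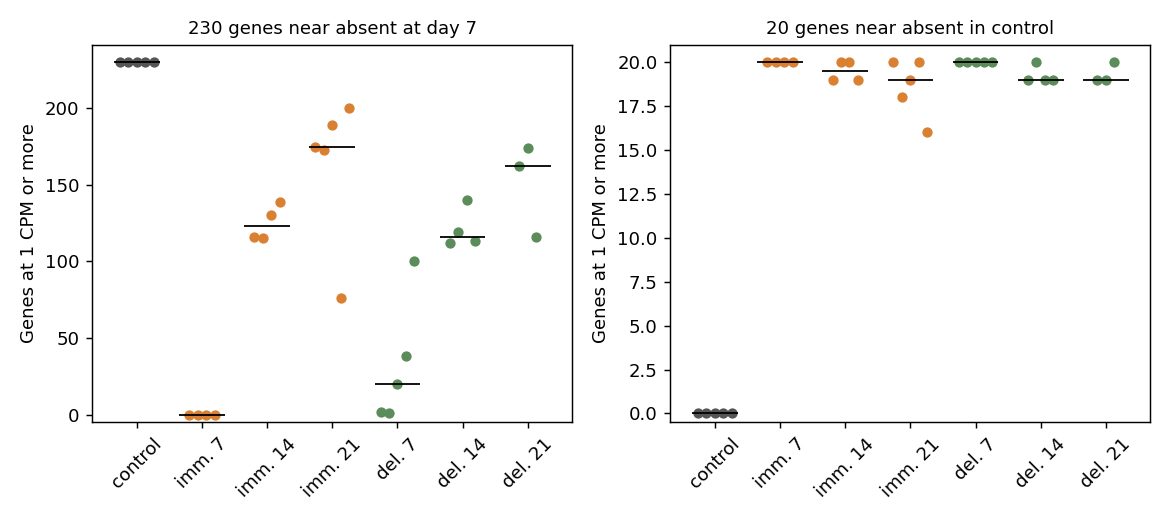
Number of genes at 1 CPM or more in each library, for the 230 genes near absent at day 7 of immediate repair (left) and the 20 genes near absent in control nerve (right), with a line at each group's median. The first set is at 0 in all 4 chosen libraries and at 115 to 139 at day 14 of immediate repair; the second stays at 16 or more of 20 in every library of repaired nerve.

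The 4 day 7 libraries were less alike than the 5 controls. Spearman correlations between pairs of libraries across tested genes were 0.891 to 0.973 at day 7 and 0.983 to 0.988 in control nerve. Genes are not independent replicates, and these values are descriptions. The SD of log2 CPM among replicates was larger at day 7 than in control nerve in 73.6% of tested genes, with medians of 0.40 and 0.22. This held in each of the 4 abundance bins, with 60.8% of the least abundant and 80.8% of the most abundant genes more spread at day 7. It held likewise among rises (74.3%), falls (76.3%) and genes not called (70.3%).

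Several measures of the spread ordered the libraries alike. Along the leading principal component of the 4 libraries, which held 71.3% of their variance, replicate 1 lay at 88.6, replicate 2 at 37.7, replicate 3 at -0.68 and replicate 4 at -126. Correlation with the mean of day 14 of immediate repair followed that order, at 0.940, 0.909, 0.878 and 0.813, and so did correlation with the control mean, at 0.744, 0.715, 0.696 and 0.633. Correlation with the mean of day 7 of delayed repair did not follow it, at 0.974, 0.984, 0.984 and 0.940. Replicate 1 had the highest correlation with day 14 and control tissue, and replicate 4 the lowest correlation with all 3 groups. Total counts were 16058103, 13533214, 15505138 and 11958242, so replicate 4 also had the fewest reads. The part of depth in the order was not tested.

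Replicates 1 and 4 carried most of the wide differences. Among the 4 libraries 854 tested genes spanned at least 16-fold, against 82 among the 5 controls. Replicate 1 was the highest in 73.0% of the 854, and replicate 4 the lowest in 75.8%. Without replicate 4 the number was 143, though fewer libraries can only lower it, and no other library was left out for this count. With a prior count of 0.5 in place of 2 the number was 1471. Replicate 4 held 660 genes at least 4-fold below every other day 7 library, and 228 at least 4-fold above. For replicate 1 these numbers were 30 below and 276 above, and for replicates 2 and 3 they were 20 to 33. In the control libraries 6 to 21 genes lay that far above and 7 to 12 that far below.

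The genes low in replicate 4 were high in most other tissue. The 660 genes took 5.68% of reads on average in the other 3 day 7 libraries and 0.110% in replicate 4. That replicate 4 lies below the other 3 in these genes is fixed by the choice. Their median level was 3.83, 2.76, 2.02 and -1.66 log2 CPM in replicates 1 to 4, against 4.21 to 4.48 in control nerve and 4.14 to 5.05 at day 14 of immediate repair. Against control, 321 of the 660 were called lower, 101 higher and 238 not called, where 35% of all tested genes were lower and 30.2% higher. Replicate 4 took part in these calls, so nothing is read from the counts. Libraries of delayed repair at day 7, which had no part in choosing these genes, were also unlike each other, with medians of 0.54, 1.89, 3.52, 3.31 and 3.97 in replicates 1 to 5. By contrast, day 14 of delayed repair spanned only 4.77 to 4.89. The 276 genes high in replicate 1, whose lead there is fixed by the choice, had medians of 2.76, -0.22, -0.85 and -2.87 in replicates 1 to 4, from -1.26 to 2.73 at day 7 of delayed repair, and from 3.63 to 4.55 at day 14 of immediate repair.

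The genes high in replicate 4 were another matter. The 228 genes took 4.76% of its reads, with a median of 4.27 log2 CPM there and 0.01 to 0.62 in the other 3 day 7 libraries. The lead of replicate 4 over those 3 is fixed by the choice. No other library of the series came near: the next highest median was 2.51, in day 21 replicate 4 of immediate repair. Of the 228, 136 were called higher than control, 29 lower and 63 not called, against 30.2% higher and 35% lower over all tested genes. The set was chosen for high values in a library that took part in these calls, so nothing is read from the counts. With replicate 4 left out, 4661 rises and 5326 falls were called. Of the 4829 rises and 5609 falls called with it, 4431 and 5144 were called again, and none was called in the opposite direction.

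**Figure D5:**
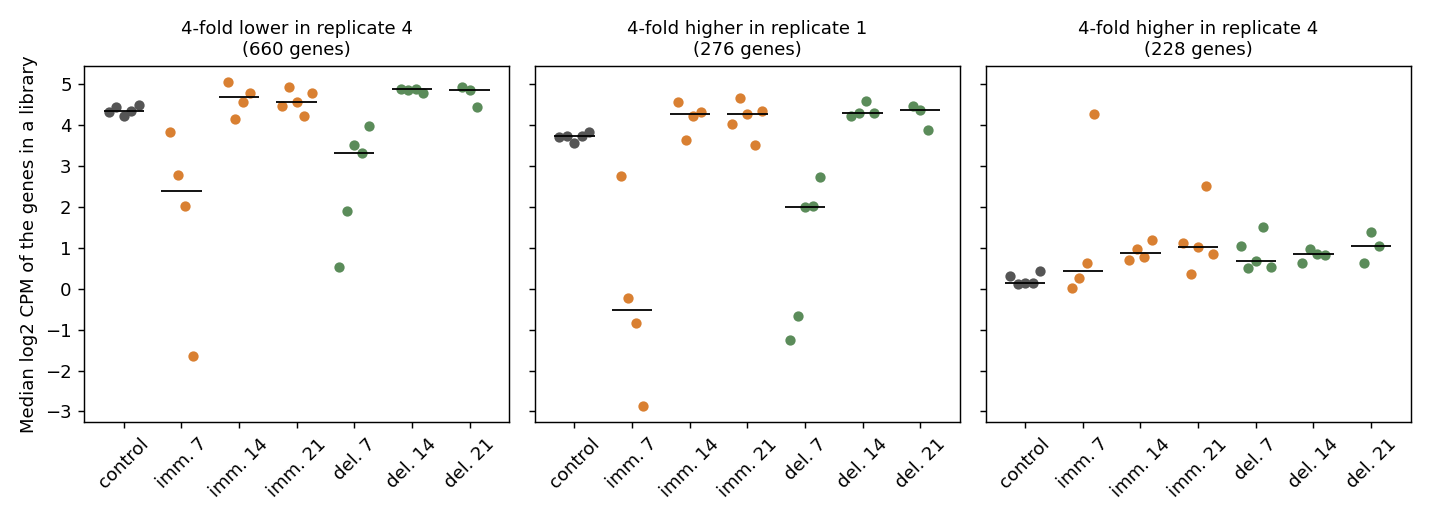
Median log2 CPM in each library of the 7 groups for 3 sets of genes that set a day 7 library of immediate repair apart by at least 4-fold, with a line at each group's median. The 660 genes low in replicate 4 and the 276 high in replicate 1 are spread at day 7 of both repairs and lie at 3.63 log2 CPM or above at day 14, while the 228 genes high in replicate 4 stand at 4.27 in that library alone.

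Day 7 of immediate repair was last set directly against 3 other repair groups. The contrasts hold no control library, but the estimate of spread was shared by all 30 libraries, controls included. Against day 14 of the same repair, 2285 genes were higher at day 7 (14.3%) and 3119 lower (19.5%) by the edgeR test. Changes of at least 4-fold were mostly genes lower at day 7, with 1703 lower (10.6%) and 326 higher (2.04%). In all 5404 genes (33.7%) differed, and 3021 did when only these 2 groups were fitted. Against day 21, 2973 were higher (18.6%) and 3929 lower (24.5%), with 2048 lower (12.8%) and 429 higher (2.68%) by at least 4-fold. There 43.1% differed in all, and 4950 genes did when only these 2 groups were fitted. With total counts in place of TMM factors the median of all genes moved from -0.04 to -0.18 log2 units against day 14 and from -0.07 to -0.26 against day 21. The share of calls higher at day 7 then went from 42.3% to 29.1% and from 43.1% to 28.1%. Against day 7 of delayed repair, 3 genes were higher (0.0187%) and 111 lower (0.693%) after immediate repair, together 0.712%. Of these, 2 were higher (0.0125%) and 111 lower by at least 4-fold. When only these 2 groups were fitted, 0 were called (edgeR), with 249 of 13603 genes at an unadjusted p under 0.05. With no difference, a share of about 0.05 would fall there, and 249 genes is below that share. The count also rests on single libraries. Leaving out delayed replicate 5 left 1 call, and leaving out immediate replicate 1, 2, 3 or 4 left 0, 3, 0 or 0 calls (edgeR), while leaving out delayed replicate 1, 2, 3 or 4 gave 360, 320, 232 or 189. Where none was called, 2107 of 15999, 1474 of 15983 and 1054 of 16007 genes had an unadjusted p under 0.05 without immediate replicates 1, 3 and 4. These are above that share.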

How the data were processed

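Per the labels' protocols, poly-T beads took messenger RNA out of 400 ng of RNA (integrity number over 6) and libraries were non-directional, so sense and antisense reads cannot be told apart. The authors deposited raw read counts per gene (whole numbers, 1 column per library, not pooled). Tools named in the submitters' processing notes are featureCounts 1.5.0-p3, HISAT2 2.0.5 and DESeq2. The sources used here do not give the build, the annotation or how reads shared by near-identical genes were counted.

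Counts of all 30 libraries (32545 genes listed, 8248 of them at 0 throughout) were fitted in R 4.3.3 with edgeR 4.0.16. Low counts were removed with filterByExpr (minimum count 10), leaving 16015 genes, and libraries were scaled with TMM. The fit had 7 groups and used the robust quasi-likelihood test, with Benjamini-Hochberg adjustment over all tested genes and a threshold of 0.05. All groups share an estimate of spread. Day 7 libraries are more spread than controls, and the fit of the compared groups alone is therefore an alternative. SEs and 95% intervals came from the test statistic. Log2 CPM used a prior count of 2. The intervals include the spread between libraries, while the limit of 3 counts for a count of 0 covers counting error only. No replicate pair agreed within sampling noise: chi-square over its degrees of freedom was at least 78.9 at day 7 and 15.2 in control nerve.

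Alternatives were DESeq2 1.42.0 (187 genes without an adjusted p), relative log expression factors, no filter, the compared groups alone, a replicate block, limma 3.58.1 voom with quality weights, and leaving out each library. Total-count scaling, other prior counts and the measures of near absence and spread were added after seeing the data. The comparison and the lists were chosen with earlier results of these data known. The 31 gene lists, held by symbol, were not analysed here, because no ID could be paired with a symbol. The rule for single genes, in its form for IDs without symbols, gave 2 rises and 2 falls.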

Additional observations from a re-analysis of the deposited data

Results flagged for a closer look

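Of 48 groups of 4 or 5 libraries taken up in a search for a value far from the others, 3 had such a value. Chance flags about 1 in 20, so this number is close to what chance gives. ENSRNOG00000022707 at day 7 of immediate repair, with 0 reads throughout, is among the 48 but could not be examined. At day 7 of immediate repair, replicate 4 had 660 genes at least 4-fold below every other replicate, against 21 to 30 in the other 3. At day 14 of delayed repair, replicate 3 stood above the other libraries for both genes with the largest falls, at 58.8 CPM for ENSRNOG00000003171 and 8.54 CPM for ENSRNOG00000022707.

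The change from control differed between day 7 and the later days of immediate repair for each of the 4 single genes, tested as the difference between the days (edgeR, all adjusted p under 0.05). These genes were picked for extreme values in the same day 7 libraries, which favours such differences, so the tests are descriptions. In log2 units, ENSRNOG00000013304 was higher at day 7 by 5.40 than at day 14 and by 4.20 than at day 21. ENSRNOG00000026235 was higher by 1.83 and 1.86. ENSRNOG00000003171 differed by -9.73 and -14.95. ENSRNOG00000022707 differed by -10.95 and -14.03, which are fitted values against a group with 0 reads and no bounds.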

How the results depend on the processing

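Against control nerve the counts of rises, falls and 4-fold changes stayed within 1.5 times of their values under all 16 alternatives run, as did the count against day 21. Rises were 4632 to 5224 over the other settings and 4594 to 4672 with a library left out. Falls were 4900 to 5923 and 5270 to 5713, 4-fold rises 1634 to 2307 and 1854 to 1988, and 4-fold falls 2469 to 3125 and 2655 to 3057. The count against day 14 was 3021 when the compared groups alone were fitted and 4087 to 6109 with a library left out. That against day 21 was 4950 with the compared groups alone and 5837 to 7333 with a library left out. The count against day 7 of delayed repair was 341 with DESeq2, 7 with no filter on low counts and 15 under relative log expression scaling. It was 0 when the compared groups were fitted alone (249 of 13603 genes at an unadjusted p under 0.05) and 0 with voom (267 of 16015 genes). Both numbers of genes lie below the share of about 0.05 that no difference would give. With a library left out it was 0 to 360. With the replicate number as a block it was 0 (edgeR, 635 of 16015 genes at an unadjusted p under 0.05, also below that share). The cause was not tested. Day 7 and control samples with the same number deviated from their group means with correlations of -0.06 to 0.01, against -0.07 to 0.07 for other pairs. Samples with the same number were thus no more alike than other pairs. With so few libraries this cannot decide whether the numbers pair these 2 groups. Pairing with the delayed repair was not tested. The 4 single genes kept direction and call in every alternative, with adjusted p between 9.94e-86 and 0.00780 (edgeR, DESeq2 or limma). The genes spanning 16-fold at day 7 numbered 612 with a prior count of 5. Gene list counts were not run, for want of symbols.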
